A study of Mus musculus with 12 samples.

Results

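The core circadian clock genes were followed in RNA-Seq libraries of mouse proximal colon. The genes were chosen by symbol, namely Arntl, Clock, Per1, Per2, Per3, Cry1, Nr1d1, Nr1d2, Dbp and Tef. They are 10 of the 55376 genes in the count table, and all 10 passed the low-count filter that left 15952 tested genes. Total RNA came from frozen whole tissue of 12 mice aged 12 weeks, with 1 library per animal. The 6 EPR fl/fl mice carry loxP sites around the promoter and exon 1 of EPR, a long noncoding RNA of intestinal epithelium, and served as controls. The 6 EPR cKO mice carry the same floxed alleles and, in addition, the CDX2P-NLS Cre transgene, in which a human CDX2 promoter drives Cre recombinase in the epithelium of distal ileum, cecum and colon. Muscle, nerves, vessels and immune cells of the colon wall are not among the named targets of this transgene, yet contribute RNA to every library. The hour at which each colon was collected and the light cycle are not given in the sources used here.

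The mammalian clock is a feedback loop of transcription that runs in nearly every cell. ARNTL (also called BMAL1) and CLOCK form a dimer that binds E-boxes and activates the Per, Cry, Nr1d and PAR bZIP genes. PER and CRY proteins return to the nucleus and repress the dimer. NR1D1 and NR1D2 (REV-ERB alpha and beta) repress Arntl through ROR response elements (ROREs), so that Arntl transcripts peak when Nr1d1 transcripts are low. DBP and TEF are PAR bZIP factors that activate genes with D-boxes, among them the Per genes. Clocks of the gut are set by feeding as well as by light, and time secretion, motility and cell division in the colon.

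The total count per library ran from 13093904 to 30727736 in EPR fl/fl and from 18468123 to 33211041 in EPR cKO. EPR, listed as Smim31, had 297 to 1474 counts in the EPR fl/fl libraries but at most 10 in the EPR cKO ones, and the libraries matched their labels. A tissue composition score, the mean log2 CPM (counts scaled to library size with TMM factors) of 10 epithelial markers minus that of 8 smooth muscle markers, ran from 0.55 to 1.28 in EPR fl/fl and from −0.43 to 3.15 in EPR cKO (exact permutation p = 0.0693, two-sided). Only EPR cKO 1 (−0.43) made the scores of the groups overlap. The next EPR cKO score was 1.58 (EPR cKO 2), above every EPR fl/fl library. EPR cKO 1 stood apart, with the highest summed smooth muscle marker level, 9533 CPM, where EPR fl/fl ran from 3237 to 5551 and EPR cKO down to 1149. The summed level of 7 goblet cell markers separated the groups, from 13166 to 28280 CPM in EPR fl/fl and from 5998 to 8375 in EPR cKO. The part of either in the values below was not tested, apart from the fits named there. All 10 epithelial markers were detected in each library.

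The promoters of 6 members hold some of the elements through which the loop is wired. RefSeq start sites of the GRCm38.p6 build gave 14 promoter windows of 300 bases for 9 members, and Per2 had none in the table used. The letters searched on both strands were CACGTG (E-box), CACGTT (E'-box), TTATGTAA and TTACGTAA (D-box), TAGGTCA and TGGGTCA (RORE core) and TGACGTCA (CRE, the cAMP response element). These motifs were chosen from textbook knowledge, and none of the letter strings contains another. The E-box was found in 4 of the 14 windows, those of Cry1, Per1 and Tef, against 7.15% of all 32851 promoter windows. The E'-box was found in 2 of the 14, those of Cry1 and Nr1d1 (4.68% of all windows). The D-box TTATGTAA occurred at 2 positions in the window of Per3 (0.938% of all windows), 205 and 158 bases before the start. The RORE core TAGGTCA occurred in Arntl (2.61% of all windows), 31 bases after 1 of its listed starts. The forms TTACGTAA, TGGGTCA and TGACGTCA were in none of the 14 windows. No match of any form was found in the windows of Clock, Nr1d2 and Dbp. A match of letters describes the sequence and is no evidence of binding here. The stretches below are shown because they carry these elements in the genes whose levels are compared further on. For Arntl a short stretch around the match is given, and for the others the 250 bases before the start. Capitals mark the matched letters.
Arntl, chr7:113207531-113207557, plus strand: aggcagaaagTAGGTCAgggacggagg
Per1, chr11:69098699-69098948, plus strand: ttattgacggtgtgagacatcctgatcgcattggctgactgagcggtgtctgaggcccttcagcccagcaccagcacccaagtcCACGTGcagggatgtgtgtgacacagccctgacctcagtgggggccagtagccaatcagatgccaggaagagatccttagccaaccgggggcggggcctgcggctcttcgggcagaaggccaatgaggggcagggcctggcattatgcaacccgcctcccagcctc
Per3, chr4:151044666-151044915, minus strand: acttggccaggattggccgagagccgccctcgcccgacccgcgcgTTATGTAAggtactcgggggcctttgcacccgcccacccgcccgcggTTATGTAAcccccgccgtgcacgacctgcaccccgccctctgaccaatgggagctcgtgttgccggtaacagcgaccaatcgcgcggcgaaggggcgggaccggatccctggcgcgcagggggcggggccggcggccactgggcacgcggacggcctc
Cry1, chr10:85185055-85185304, minus strand: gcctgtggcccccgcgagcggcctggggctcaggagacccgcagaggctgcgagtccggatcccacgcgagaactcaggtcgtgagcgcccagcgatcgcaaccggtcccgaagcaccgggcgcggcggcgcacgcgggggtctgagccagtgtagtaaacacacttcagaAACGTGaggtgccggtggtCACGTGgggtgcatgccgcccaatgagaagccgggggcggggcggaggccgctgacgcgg
Nr1d1, chr11:98775378-98775627, minus strand: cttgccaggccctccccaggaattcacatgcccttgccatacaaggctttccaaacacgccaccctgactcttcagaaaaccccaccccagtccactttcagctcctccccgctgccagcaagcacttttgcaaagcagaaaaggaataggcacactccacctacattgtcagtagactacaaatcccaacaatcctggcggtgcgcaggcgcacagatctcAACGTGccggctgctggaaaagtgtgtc
Tef, chr15:81811164-81811413, plus strand: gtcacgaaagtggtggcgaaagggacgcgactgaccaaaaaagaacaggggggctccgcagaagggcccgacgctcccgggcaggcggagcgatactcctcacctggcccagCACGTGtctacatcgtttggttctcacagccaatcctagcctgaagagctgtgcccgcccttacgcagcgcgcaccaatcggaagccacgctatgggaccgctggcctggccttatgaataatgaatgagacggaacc

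Transcript abundance was first compared between members per length, as CPM per kilobase of summed exons over the 12 libraries. The nuclear receptor genes were highest, with Nr1d2 at 24.5 ± 4.69 and Nr1d1 at 20.5 ± 8.01 (SD, n = 12). Dbp followed at 16.8 ± 7.54 CPM per kilobase, then Tef at 14.4 ± 4.32 and Clock at 13.5 ± 0.842. Arntl was at 8.12 ± 2.35 and Cry1 at 6.65 ± 2.12. The Period genes were lowest, with Per1 at 4.28 ± 1.52, Per3 at 4.04 ± 1.30 and Per2 at 2.51 ± 0.949. Only 2 neighbours in this order differed by more than the spread of their ratio within a library. Clock exceeded Arntl by a log2 ratio of 0.78 (SD 0.41, higher in 12 of 12 libraries), and Per3 exceeded Per2 by 0.72 (SD 0.42, 12 of 12). The lowest count of any member in any library was 88 (Per2), for which counting error is 10.7%, so that depth limited few of these values.

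The comparison of EPR cKO with EPR fl/fl asked whether loss of EPR in the epithelium shifts clock gene levels in the colon. None of the 10 members was called at an adjusted p under 0.05 (edgeR quasi-likelihood test, Benjamini-Hochberg over 15952 genes), where 2.46% of all tested genes were (0.884% higher and 1.57% lower in EPR cKO). None passed the stricter thresholds that the methods of the study state, an adjusted p under 0.001 together with a minimum fold change, as 0.169% of genes did. The DESeq2 Wald test and limma-voom also called 0 members, against 5.72% and 3.15% of genes. At an unadjusted p under 0.05 there was 1 member, Tef, against 18.3% of all tested genes. The groups overlapped for all 10 members, while 2.47% of tested genes had groups that did not overlap. Log2 fold changes were positive for 8 of 10 members, with a median of 0.14, against 52.8% of tested genes and a median of 0.017. Because the libraries are of whole tissue, fewer cells of a type and less RNA per cell cannot be told apart in any of these values.

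Neither gene of the positive arm passed the test. Clock, the partner of ARNTL and the member with the steadiest transcript (chr5:76209868-76304792), ran from 117 CPM through a median of 133 to 146 in EPR fl/fl, and from 122 through 136 to 141 in EPR cKO. Its log2 fold change was 0.010 (SE 0.065, 95% interval −0.13 to 0.15, adjusted p = 0.944 by edgeR), the narrowest interval of the members. Arntl (chr7:113207465-113314126) ran from 17.2 through 28.8 to 35.4 CPM in EPR fl/fl and from 16.3 through 20.0 to 36.6 in EPR cKO. In EPR cKO, 5 libraries lay between 16.3 and 22.01 CPM and EPR cKO 3 alone lay at 36.6, the highest of all 12. The Arntl mean was 27.8 ± 6.74 CPM against 22.3 ± 7.24 (SD, n = 6), with a log2 fold change of −0.32 (SE 0.21, 95% interval −0.76 to 0.13, edgeR adjusted p = 0.426).

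The repressors of the Period and Cryptochrome families spread over 2.59-fold (Per3) to 3.85-fold (Per2) across the 12 libraries. Per2 (chr1:91415982-91459324) ran from 6.31 through 12.5 to 20.6 CPM in EPR fl/fl and from 10.3 through 16.9 to 24.3 in EPR cKO, and the groups overlapped. Its log2 fold change of 0.50 was the largest of the members (SE 0.27, 95% interval −0.084 to 1.09, edgeR adjusted p = 0.346). Per3 (chr4:151003652-151044665) ran from 14.2 through 20.5 to 29.3 CPM in EPR fl/fl and from 14.2 through 26.97 to 36.8 in EPR cKO, a log2 fold change of 0.35 (SE 0.24, −0.17 to 0.86, adjusted p = 0.459). Per1, which also responds rapidly to hormones and stress (chr11:69095217-69109960), ran from 13.9 through 23.1 to 38.4 CPM in EPR fl/fl and from 13.9 through 20.6 to 36.8 in EPR cKO. The Per1 groups covered nearly the same range, with a log2 fold change of −0.041 (SE 0.28, −0.64 to 0.55, adjusted p = 0.945). Cry1, the late repressor of the loop (chr10:85131700-85185064), ran from 12.9 through 20.2 to 26.3 CPM in EPR fl/fl and from 15.5 through 18.7 to 37.0 in EPR cKO. Its log2 fold change was 0.16 (SE 0.23, −0.33 to 0.65, adjusted p = 0.722), and turned to −0.075 without EPR cKO 3, the library with 37.0 CPM.

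Both REV-ERB genes overlapped between the groups, with a wider range of Nr1d1 in EPR cKO. Nr1d1 (chr11:98767932-98775333) ran from 39.0 through 52.2 to 70.5 CPM in EPR fl/fl and from 23.8 through 49.4 to 109.7 in EPR cKO. The extremes of Nr1d1 over all libraries were EPR cKO 3 and EPR cKO 1, and the mean was 53.2 ± 10.1 against 58.1 ± 30.5 CPM (SD, n = 6). Its log2 fold change was 0.12 (SE 0.29, 95% interval −0.50 to 0.75, edgeR adjusted p = 0.832), and became −0.17 without EPR cKO 1. Nr1d2 (chr14:18204054-18239127) ran from 85.0 through 107 to 126 CPM in EPR fl/fl and from 81.1 through 124 to 153 in EPR cKO, a log2 fold change of 0.18 (SE 0.15, −0.14 to 0.49, adjusted p = 0.532). Exons of the antisense gene Thra cover 9.67% of the exon bases of Nr1d1. Thra had 544 to 1808 counts and Nr1d1 474 to 2170, and if strand was not used in counting, reads of the shared bases cannot be told apart.

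The PAR bZIP genes held the widest and the most one-sided of the member values. Dbp (chr7:45705088-45710203) ran from 20.5 through 28.1 to 50.7 CPM in EPR fl/fl and from 7.37 through 33.3 to 58.6 in EPR cKO, a 7.96-fold range over the 12 libraries. The high Dbp libraries were EPR cKO 1 and EPR fl/fl 1, and the low library was EPR cKO 3. With a log2 fold change of 0.048 (SE 0.38, 95% interval −0.76 to 0.86, edgeR adjusted p = 0.954), Dbp also had the widest interval, and a change of that size in either direction was not detectable with these libraries. Antisense exons of Sphk2 (681 to 2059 counts) cover 29.3% of its exon bases, with the same limit. Tef (chr15:81802421-81826863) ran from 47.7 through 53.1 to 81.6 CPM in EPR fl/fl and from 39.5 through 81.5 to 102 in EPR cKO. In EPR fl/fl, 5 libraries lay between 47.7 and 58.5 CPM, and in EPR cKO 5 lay between 73.4 and 102, so that EPR fl/fl 1 and EPR cKO 3 made the groups overlap. The Tef mean was 57.2 ± 12.8 against 78.3 ± 21.9 CPM (SD, n = 6), a log2 fold change of 0.45 (SE 0.20, 95% interval 0.022 to 0.89), which did not pass the test (unadjusted p = 0.0408, edgeR adjusted p = 0.252). Without EPR cKO 1 and EPR cKO 3, a choice made after the values were seen, Tef was at 0.52 with an edgeR adjusted p of 0.0296, where 18.2% of all genes were called.

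**Figure D1:**
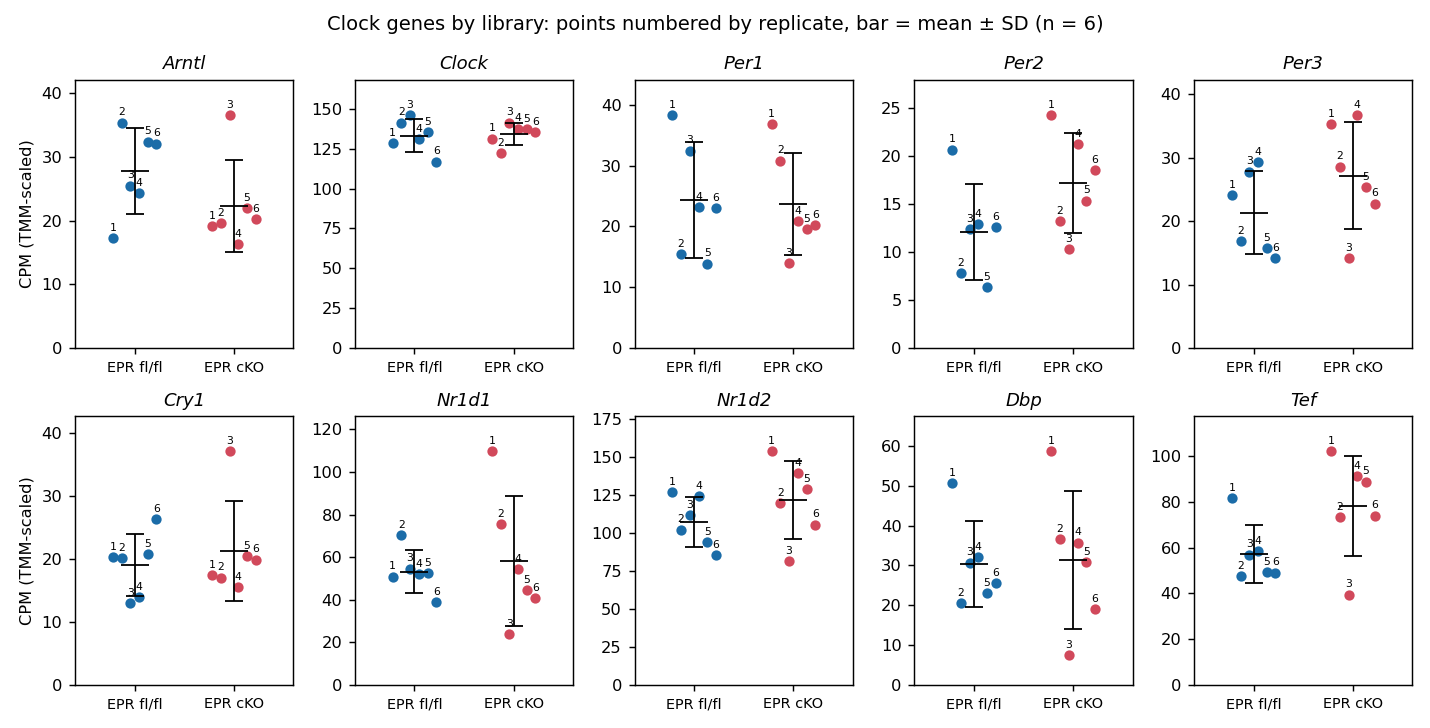
TMM-scaled CPM of each member in the 6 EPR fl/fl and 6 EPR cKO libraries, with points numbered by replicate and bars for mean ± SD. The groups overlap in every panel, and EPR cKO 3 is the highest point for Arntl (36.6 CPM) and Cry1 (37.0) and the lowest for Dbp (7.37).

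**Figure D2:**
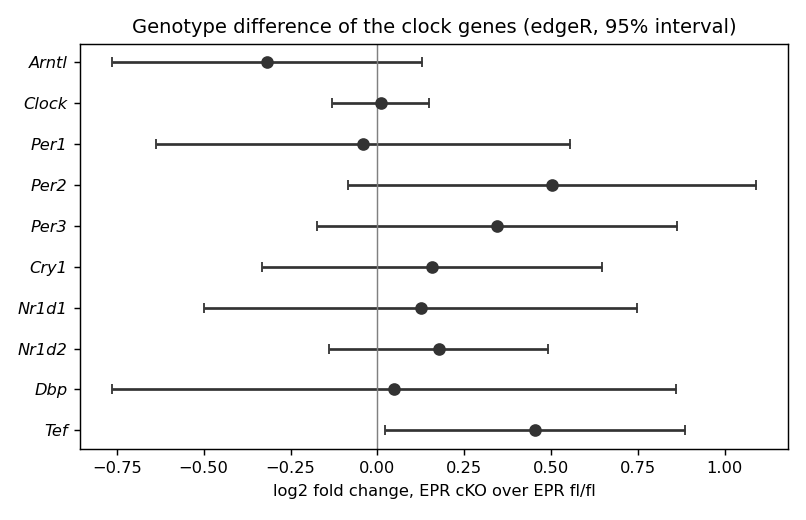
Log2 fold change of EPR cKO over EPR fl/fl for each member with its 95% interval from the edgeR fit. The interval of Clock is the narrowest (−0.13 to 0.15), and the interval of Tef (0.022 to 0.89) is the 1 that does not include 0, before adjustment over all genes.

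Setting aside the libraries that stood apart did not turn the members into calls, apart from the Tef value above. Without EPR cKO 1, 21.8% of all genes passed an adjusted p of 0.05, and 0 of the 10 members did. The tissue composition scores of the groups do not overlap in that setting. Without EPR cKO 3, 1.16% of genes and 0 members passed. The direction of Clock, Per1, Cry1, Nr1d1 and Dbp turned in at least 1 alternative, while Arntl stayed lower and Per2, Per3, Nr1d2 and Tef stayed higher in EPR cKO in every alternative run. No relation of a member with the tissue composition score passed the test over the 12 libraries. Pearson r ran from −0.49 (Nr1d1, Spearman rho −0.41, permutation p = 0.107 and 0.193) to 0.25 (Clock, rho 0.17, p = 0.440 and 0.590), with adjusted permutation p from 0.808 to 0.934 for r over the 10 relations. Without the 2 libraries of most extreme score, these values were −0.46 for Nr1d1 and 0.19 for Clock. Within the groups r was 0.65 for Nr1d1 in EPR fl/fl against −0.67 in EPR cKO, a difference that was not tested.

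Most members varied more among animals within a genotype than the median tested gene. The within-group standard deviation of log2 CPM, pooled over both groups, had a median of 0.45 over the members and 0.25 over all tested genes. Of the 10 members, 9 lay above the latter. Dbp, at 0.80, was more variable than 94.0% of tested genes. Nr1d1 (0.57, above 84.7%), Per1 (0.54, above 82.8%), Per2 (0.53, above 82.5%) and Per3 (0.48, above 78.5%) followed. The Nr1d1 spread lay mostly in EPR cKO (58.1 ± 30.5 CPM, against 53.2 ± 10.1 in EPR fl/fl, SD, n = 6). Its extremes were EPR cKO 1 and EPR cKO 3. Cry1 stood at 0.42, Tef at 0.40, Arntl at 0.39 and Nr1d2 at 0.28. Clock stood at 0.10, and was more variable than 3.98% of tested genes.

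Part of this variation was shared between members. The 7 genes Per1, Per2, Per3, Nr1d1, Nr1d2, Dbp and Tef correlated positively with each other in all 21 pairs over the 12 libraries (log2 CPM, Pearson r from 0.24 to 0.93). Of these 21 pairs, 13 passed an adjusted permutation p of 0.05 by r and 10 by rho, and 17 kept their sign in both groups. Without EPR cKO 1 and EPR cKO 3, the r of Nr1d1 went from 0.77 to 0.19 with Dbp and from 0.53 to −0.10 with Tef. In EPR fl/fl, Nr1d1 gave −0.32 with Per1, −0.39 with Per2, −0.27 with Dbp and −0.10 with Tef, but 0.19 with Per3 and 0.33 with Nr1d2. Arntl correlated negatively with all 7 (r from −0.92 to −0.41), with 6 of 7 pairs past an adjusted permutation p of 0.05. The r of Cry1 with the 7 was also negative (−0.79 to −0.28), but 3 of 7 pairs passed by r and 1 by rho, and within the groups 0 passed among the EPR fl/fl and 1 among the EPR cKO libraries. Of the 45 pairs of members, 22 passed an adjusted permutation p of 0.05 by r, 13 of them positive and 9 negative, and 16 passed by Spearman's rho. Clock passed with no other member, with r between −0.37 and 0.18 and 0 of 9 pairs past the threshold (0 by rho also). With the 2 libraries farthest from the median of the first gene left out, 39 of 45 pairs kept their sign.

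Among the members, the strongest relation with Arntl was that of Tef. Arntl and Tef correlated at r = −0.92 (permutation p = 5e-05, adjusted over 45 pairs 0.00105) and rho = −0.92 (p = 8e-05), and at −0.88 without the 2 libraries of most extreme Arntl, EPR fl/fl 2 and EPR cKO 3. Arntl and Per2 gave r = −0.86 (permutation p = 0.00031, adjusted 0.00288), rho = −0.92 (p = 8e-05) and r = −0.84 without these libraries. Arntl and Per3 gave r = −0.85 (permutation p = 0.00069, adjusted 0.0035), rho = −0.76 (p = 0.00509) and −0.79 without them. Arntl and Nr1d2 gave r = −0.84 (permutation p = 0.0007, adjusted 0.0035), rho = −0.85 (p = 0.00089) and −0.81. These 4 relations passed whichever single library was removed. Because 5 of the 6 libraries lowest in Arntl were EPR cKO, they were also computed on deviations from the group means, which gave −0.91 for Tef, −0.82 for Per2, −0.83 for Per3 and −0.83 for Nr1d2, and 30 of 45 pairs past the threshold.

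Other relations with Arntl rested more on single animals. Arntl and Dbp correlated at r = −0.73 (permutation p = 0.00311, adjusted 0.0108) and rho = −0.80 (p = 0.00297), and at −0.58 without EPR fl/fl 2 and EPR cKO 3. Without EPR cKO 3 alone, the value was −0.66 with an adjusted permutation p of 0.0725. Arntl and Per1 gave r = −0.68 (permutation p = 0.0183, adjusted 0.0391) and rho = −0.65 (p = 0.0253), fell to −0.49 without both libraries, and missed the threshold in 7 of the 12 cases of removing a single library. Arntl and Cry1 gave r = 0.55 (permutation p = 0.0613, adjusted 0.0952) and rho = 0.48 (p = 0.114), and 0.31 without both, but passed on deviations from the group means (r = 0.69, adjusted permutation p = 0.0281). Nr1d1, the repressor that acts on the RORE of Arntl, showed the inverse relation of smallest size, r = −0.41 (permutation p = 0.185, adjusted 0.245) and rho = −0.32 (p = 0.309), or −0.37 without both. Arntl and Clock gave r = 0.18 (permutation p = 0.583, adjusted 0.656), rho = 0.37 (p = 0.238) and −0.14 without both. On deviations from the group means, r with Arntl was −0.85 for Dbp, −0.75 for Per1 and −0.46 for Nr1d1. On residuals from the tissue composition score, these values were −0.88, −0.85 and −0.60.

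The pair with the highest correlation was Per3 and Nr1d2, at r = 0.93 (permutation p = 2e-05, adjusted 0.0009), rho = 0.89 (p = 0.00029) and 0.88 without EPR fl/fl 6 and EPR cKO 3. The lowest was that of Arntl and Tef. Nr1d2 and Tef followed closely at r = 0.90 (permutation p = 7e-05, adjusted 0.00105), rho = 0.93 (p = 4e-05) and 0.85 without the same pair of libraries.

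**Figure D3:**
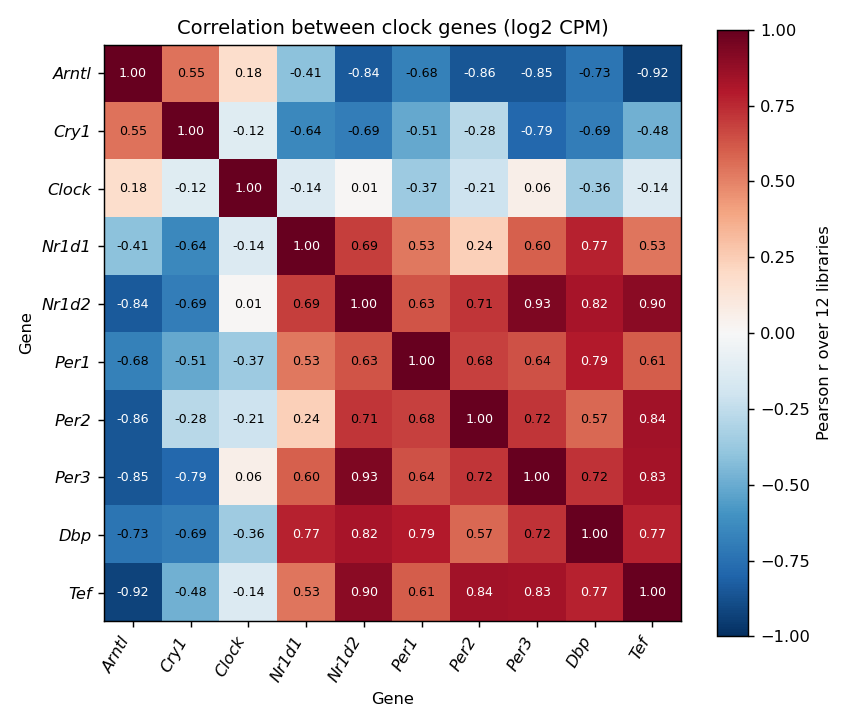
Pearson r of log2 CPM over the 12 libraries for each pair of members. A block of 7 genes from Nr1d1 to Tef is positive throughout (0.24 to 0.93), and 13 of its 21 pairs pass the permutation test. Arntl and Cry1 are negative against each gene of the block, and Clock is near 0 with most.

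These relations were compared within each genotype, where 6 libraries give an exact permutation p of at least 0.00139. Of the 45 pairs, 36 had the sign of the pooled value in both groups. In EPR fl/fl, Arntl correlated with Dbp at r = −0.99 (exact permutation p = 0.00139, adjusted 0.0417) and with Tef at −0.99 (exact p = 0.00278, adjusted 0.0417), and Dbp with Tef at 0.98 (exact p = 0.00278, adjusted 0.0417). These 3 pairs were the only ones past an adjusted exact p of 0.05 in EPR fl/fl, and 14 had an unadjusted p under 0.05. In EPR cKO, 9 pairs passed the adjusted exact permutation test and 21 the unadjusted one. Among them were Arntl with Cry1 at r = 0.99 (exact p = 0.00278, adjusted 0.0391) and Arntl with Per3 at −0.94 (exact p = 0.00694, adjusted 0.0391). Arntl with Nr1d1 gave 0.16 in EPR fl/fl (exact p = 0.761), against −0.74 in EPR cKO (exact p = 0.103), and neither that difference nor any other between the groups was tested. The EPR cKO values include EPR cKO 3, without which 12 of the 45 pooled pairs passed rather than 22.

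Each animal was also described by the ratio of Arntl to Dbp within a library, which does not depend on library scaling. The ratio is of CPM, not per length, so that only its differences between libraries are read. In EPR fl/fl the log2 ratio was −1.56, 0.79, −0.27, −0.40, 0.49 and 0.33 in replicates 1 to 6. In EPR cKO it was −1.61, −0.90, 2.31, −1.13, −0.49 and 0.09. The groups overlapped, and the mean was −0.10 ± 0.84 against −0.29 ± 1.40 (SD, n = 6). EPR cKO 3 and EPR cKO 1, the ends of the whole range, were both knockout animals, and EPR fl/fl 1 lay beside EPR cKO 1. The log2 ratio of Arntl to Nr1d1 averaged −0.95 ± 0.43 in EPR fl/fl, against −1.27 ± 1.09 in EPR cKO, and EPR cKO 3 was highest at 0.62. The log2 ratio of Arntl to Tef averaged −1.054 ± 0.67 in EPR fl/fl, against −1.80 ± 0.87 in EPR cKO. No test was made on these ratios.

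**Figure D4:**
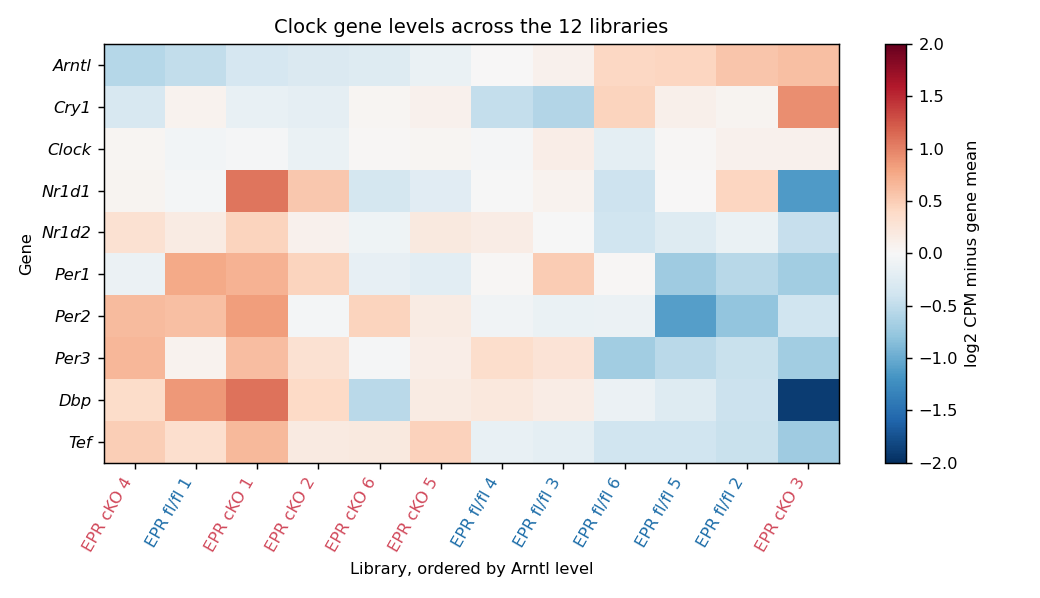
Log2 CPM of each member minus its mean over the 12 libraries, with libraries ordered by their Arntl level and named in blue (EPR fl/fl) or red (EPR cKO). From left to right, Per2, Per3, Nr1d2, Dbp and Tef levels turn from mostly above to mostly below their mean. Per1 and Nr1d1 levels lie on both sides of their mean in either part of the order, and both genotypes are present at either end.

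The relations with Arntl were set against all other tested genes. Of 15951 genes, 8 had r at or below −0.8 with Arntl over the 12 libraries, and 4 of these were the members Tef, Per2, Per3 and Nr1d2. In order from the most negative r, Tef ranked 2, Per2 ranked 4, Per3 ranked 5, Nr1d2 ranked 6, Dbp ranked 25 and Per1 ranked 55. Nr1d1 ranked 992. From the most positive r, Cry1 ranked 172 and Clock 3858. The ranks describe these 12 libraries, and genes are not independent of each other.

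**Figure D5:**
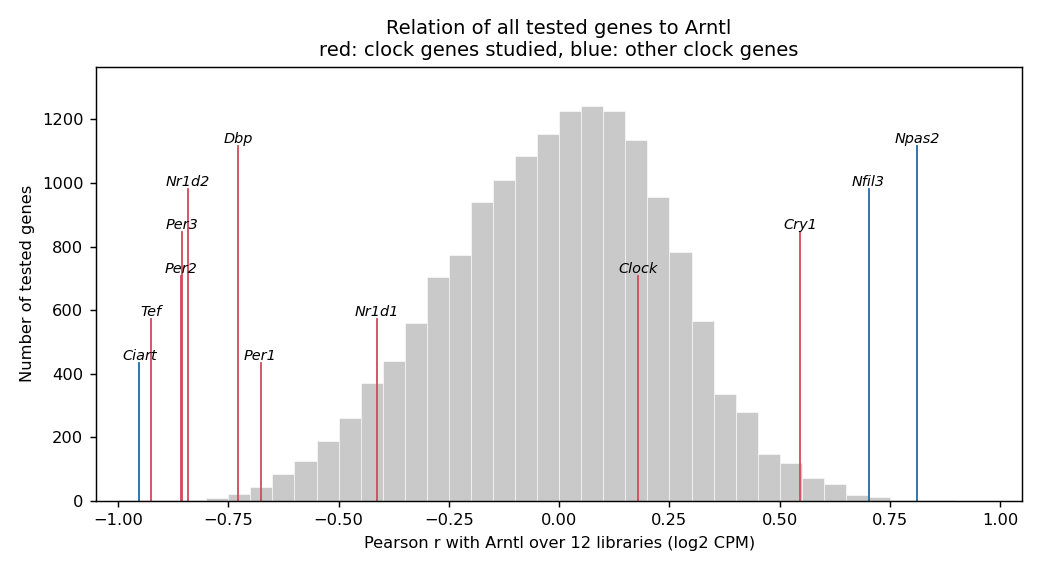
Number of tested genes by Pearson r with Arntl over the 12 libraries (grey bars), with lines at the members (red) and at Ciart, Npas2 and Nfil3 (blue), whose heights serve only to separate the names. Tef (−0.92), Per2 (−0.86), Per3 (−0.85) and Nr1d2 (−0.84) lie in the left tail, and Npas2 (0.81) in the right one.

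Other genes of the clock machinery were not called by edgeR with all libraries either. Of 18 such genes, 17 were tested (Rorb was not), and 0 passed an adjusted p of 0.05 by edgeR in either direction. As 2.46% of all tested genes passed, a list of 17 can show little by such a count. Unadjusted, 4 of 17 had p under 0.05, against 18.3% of all genes, and the median log2 fold change was −0.096. Early in the list were Npas2, a CLOCK paralogue (−0.30, SE 0.20, adjusted p = 0.438), Arntl2 (0.13, SE 0.25, 0.789), Cry2 (−0.013, SE 0.15, 0.969), Rora (−0.46, SE 0.34, 0.485) and Nfil3, a repressor at D-boxes (−0.31, SE 0.30, 0.596). Single libraries moved these values. Rora was at −1.002 (edgeR adjusted p = 0.00159) without EPR cKO 1 and at −0.011 with the tissue composition covariate, and Nfil3 was at −0.71 (0.0958) without EPR cKO 3 and −0.16 (0.798) without EPR fl/fl 6. Without EPR cKO 1, where 21.8% of all genes were called, Hlf (−1.31), Bhlhe41 (−0.96), Csnk1d (0.17) and Timeless (0.66) also passed by edgeR, and are named after their values were seen. With all libraries and the tissue composition covariate, Hlf was at 0.085 (edgeR adjusted p = 0.948) and Bhlhe41 at 0.12 (0.891). Csnk1d was then at 0.079 (0.59) and Timeless at 0.19 (0.657). Bhlhe40, which encodes the E-box repressor DEC1 and is named after its values were seen, averaged 102 ± 17.2 CPM in EPR fl/fl, against 139 ± 14.4 in EPR cKO (SD, n = 6). Its log2 fold change was 0.45 (SE 0.11, edgeR adjusted p = 0.0565). It passed 0.05 with the DESeq2 Wald test (adjusted p = 0.00958), with limma-voom (0.0439), without EPR fl/fl 1 (0.0428) and without EPR cKO 1 (0.00951). Over all alternatives its adjusted p ran up to 0.207, with the tissue composition covariate.

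The relation of these genes to Arntl was read from the same ranking. Ciart, which encodes the CLOCK–ARNTL repressor CHRONO, had the lowest r of all tested genes, −0.95, or −0.92 among the EPR fl/fl and −0.97 among the EPR cKO libraries. Its level ran from 1.00 CPM (EPR cKO 3) to 5.27 (EPR cKO 4). Npas2 ranked 4 from the top with r = 0.81, or 0.83 among the EPR fl/fl and 0.75 among the EPR cKO libraries. Nfil3 ranked 18 with 0.70, but its r was 0.18 among EPR fl/fl against 0.90 among EPR cKO. The r of Bhlhe40 was −0.60, with −0.70 among EPR fl/fl against −0.20 among EPR cKO. These differences between the groups were not tested. Cry2, whose transcript is known to cycle weakly, was at −0.41, and Rora at 0.02. Ciart and Bhlhe40 were chosen after their values were seen, and no p is given for these values.

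Genes known as outputs of the clock or as targets of glucocorticoids, which carry time of day from the adrenal to peripheral tissue, were not called by edgeR with all libraries. Of 8 output genes, 0 were called by edgeR, where 2.46% of all tested genes were, and 2 had an unadjusted p under 0.05, where 18.3% were, with a median log2 fold change of 0.075. Coq10b, named after its values were seen, was at 0.45 (SE 0.12, edgeR adjusted p = 0.067) and passed 0.05 with the DESeq2 Wald test (adjusted p = 0.0183), with limma-voom (0.0495) and without EPR cKO 1 (0.0366), with up to 0.161 over all alternatives. The cell cycle kinase gene Wee1 was at 0.13 (SE 0.14, adjusted p = 0.632), Usp2 at −0.24 (SE 0.33, 0.712) and Nampt at 0.011 (SE 0.20, 0.980). Por was at 0.081 (SE 0.088, 0.639), the cell cycle inhibitor gene Cdkn1a at 0.40 (SE 0.15, 0.184) and Ppard at 0.068 (SE 0.14, 0.810). Of 6 glucocorticoid-responsive genes, 0 were called by edgeR and 0 had an unadjusted p under 0.05, with a median of −0.059. Beside 2.46% and 18.3% of all tested genes, a list of 6 can show little by such counts. Tsc22d3 was at −0.057 (SE 0.21, adjusted p = 0.900), Fkbp5 at 0.29 (SE 0.23, 0.517), Sgk1 at −0.19 (SE 0.23, 0.666), Zbtb16 at 0.033 (SE 0.72, 0.983), Klf9 at −0.062 (SE 0.16, 0.850) and Cdkn1c at −0.16 (SE 0.14, 0.564). With Arntl, the r of the output genes ran from −0.48 (Usp2) to 0.12 (Ppard). The r of the glucocorticoid-responsive genes ran from −0.62 (Fkbp5) to 0.046 (Cdkn1c).

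Genes most like the ratio of Arntl to Nr1d1 were sought among 11448 genes with a mean of at least 5 CPM, with both measures taken as deviations from the group mean over 12 libraries. Among the highest r were those of Atp6v0b (0.91), Apba3 (0.90), Pold1 (0.89) and Pcbd2 (0.89). The lowest belonged to Dnajc1 (−0.93), Ercc5 (−0.92), Zfyve9 (−0.87), Ank3 (−0.85) and Ubr1 (−0.85). None of these is a gene of the lists above. Atp6v0b was called between the genotypes (log2 fold change 0.30, edgeR adjusted p = 0.0472), and the others named were not. No p is given for these correlations, which were the extremes of 11448. The ratio itself ran furthest in EPR cKO 1 (−2.52) and EPR cKO 3 (0.62), so that these 2 animals weigh most in the ranking.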

How the data were processed

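RNA-Seq was analysed for 6 EPR fl/fl and 6 EPR cKO libraries of mouse proximal colon, grouped by the sample titles. The authors prepared stranded libraries from ribosomal RNA-depleted total RNA, trimmed the reads with Trimmomatic, aligned them with STAR 2.5.3a to mm10, and deposited raw counts per gene from featureCounts with an Ensembl annotation of GRCm38. Strand use in counting is not stated. The summed exon length is taken per the file headers.

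Genes with at least 1 CPM in at least 4 libraries were tested with edgeR 4.0.16 (R 4.3.3; TMM, glmQLFit, glmQLFTest, no covariate), the filter the authors state, with Benjamini-Hochberg adjustment over all 15952 genes. The standard error was the log2 fold change over the root of F. Log2 CPM used a prior count of 2. Correlations were tested with 100000 permutations (all 720 orders within a group, exact), two-sided, adjusted over the 45 pairs. On simulated counts for this comparison (15952 genes, 200 changed), 65.5% of the altered genes were found at a simulated log2 change of 1, and 91% at 2. Alternatives were DESeq2 1.42.0 (size factors, Wald test), total counts, no filter, filterByExpr, limma-voom (limma 3.58.1), a replicate block, a tissue composition covariate and leaving out each library.

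The members and gene lists were chosen with earlier results of these data known. Named genes were the 10 members, Smim31, genes of the 3 lists past an adjusted p of 0.05 or otherwise up to 6 per list in a fixed order, the 5 genes at each end of the likeness ranking, and the Arntl, highest and lowest pairs. Any other was chosen after its values were seen. Some genes that this rule names are not reported here.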

Additional observations from a re-analysis of the deposited data

Results flagged for a closer look

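Of 26 sets of 6 values tested with Dixon's criterion, 4 held a library far from the others of its group, where chance gives about 1.3. Arntl in EPR cKO 3 was at 36.6 CPM, where the remaining EPR cKO libraries ran from 16.3 to 22.01. Cry1 in the same library was at 37.0 CPM, against 15.5 to 20.5. The log2 ratio of Arntl to Tef there was −0.11, against −2.49 to −1.87. Tef in EPR fl/fl 1 was at 81.6 CPM, against 47.7 to 58.5 in the other EPR fl/fl libraries. The first 3 values come from 1 library and are not independent of each other.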

How the results depend on the processing

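No member was called under any alternative that kept all libraries or left out 1. With EPR cKO 1 and EPR cKO 3 both left out (chosen after seeing the data), 1 member, Tef, was called. Calls over all genes, 392, numbered 913 with the DESeq2 Wald test, 245 with the replicate block, 2866 without EPR cKO 1 and 3, and 176 (without EPR fl/fl 4) to 3451 (without EPR cKO 1) when 1 library was left out. Calls among the 31 other clock, output and glucocorticoid genes, 0, became 2 with DESeq2 and 2 with limma-voom (Bhlhe40 and Coq10b both times), 8 without EPR cKO 1 and 3, and 0 to 7 with 1 library left out, the 7 without EPR cKO 1 being Rora, Hlf, Bhlhe40, Bhlhe41, Csnk1d, Timeless and Coq10b. Pairs of members past the threshold, 22, numbered 22 to 32 under the 6 alternatives with all libraries. The 32 came with the replicate block, whose permutation p-values are too small. They numbered 12 (without EPR cKO 3) to 26 with 1 library left out, and 8 without EPR cKO 1 and 3.

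Log2 fold changes turned sign for Clock with total counts (−0.022), no filter (−0.013), the tissue composition covariate (−0.019) and without EPR cKO 1 and 3 (−0.0032), for Per1 with the tissue composition covariate (0.23), for Nr1d1 with limma-voom (−0.027) and the replicate block (−0.012), for Dbp with limma-voom (−0.11) and the replicate block (−0.10), and for Cry1 without EPR cKO 1 and 3 (−0.063). Leaving out 1 library gave −0.023 to 0.039 for Clock, −0.22 to 0.12 for Per1, −0.075 to 0.28 for Cry1, −0.17 to 0.28 for Nr1d1 and −0.24 to 0.25 for Dbp. The r of Arntl and Clock was −0.028 with the replicate block, and that of Arntl and Nr1d1 was 0.020 without EPR cKO 1 and 3. The cause was not tested. Same-numbered replicates deviated together in 2 of 6 pairs (r over 0.1, range −0.24 to 0.34) and 2 of 6 EPR fl/fl libraries correlated best with their own number, so that the numbers were not read as a pairing. The replicate block changed no member's call between groups, and gave Arntl and Cry1 an r of 0.74 (adjusted permutation p = 0.00692, which is too small, as said above). The interval of Dbp, −0.76 to 0.86, shows what 6 animals per group can miss for the most variable member.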

Other observations

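Genes other than members at both ends of the ranking of r with Arntl over the 12 libraries were read after it was computed. The highest r belonged to Dusp1, which encodes a phosphatase of MAP kinases (0.87, or 0.96 among EPR fl/fl and 0.74 among EPR cKO libraries). Ypel2 (0.85), Tmem252 (0.83), the clock gene Npas2 (0.81), the immediate early gene Ier5 (0.80) and the arrestin domain gene Arrdc4 (0.79) followed. Dusp1 ran from 14.4 CPM in EPR cKO 4 to 30.4 in EPR fl/fl 2, the lowest and the second highest library for Arntl. Heatr3, which encodes a factor for import of ribosomal protein, ranked 3 from the lowest with r = −0.89. None of these genes was called between the genotypes by edgeR, with adjusted p-values from 0.290 (Heatr3) to 0.985 (Arrdc4). No p is given for these correlations, which were the extremes of 15951.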
